A study of Mus musculus with 4 samples.

Results

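The late granule genes of maturing neutrophils described here are 10 of the 23284 gene symbols measured in mouse pre-B cells: Ltf, Lcn2, Camp, Ngp, S100a8, S100a9, Mmp8, Mmp9, Retnlg and Hp. They were chosen by symbol, as genes that marrow granulocytes express from the myelocyte stage to the mature neutrophil, with the FPKM values of the same 4 libraries already known and neutrophil transcripts already seen to differ between them. Their levels and differences are therefore given as a description, and no test of the members is reported. All 10 symbols had a value in every library.

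The data are RNA-seq libraries of pre-B cells (marrow precursors of B lymphocytes) from C57BL/6J mice, 1 library for each of 4 groups. Transgenic marrow carrying STAP-2 (signal-transducing adaptor protein-2, gene symbol Stap2) was compared with wild-type marrow, both at steady state and both with 0901 in their titles. Marrow labelled STAP-2 knockout was compared with wild-type marrow, both taken 1 month after transplantation and both with 0826 in their titles. The study asked how STAP-2 acts on the recovery of the B lineage in stressed marrow. The promoter that drives the transgene, the form of the deleted allele, donors and hosts of the transplantation, the number and age of the mice and the gate by which pre-B cells were collected are not stated in the labels. With 1 library per group, no difference below has a replicate check and no p-value is given. The 95% intervals come from estimated reads and cover counting error only.

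Neutrophils fill their granules in waves as they mature. Myeloperoxidase and the serine proteases of primary granules are made first, in promyelocytes. Lactoferrin, lipocalin and cathelicidin of the secondary granules follow in myelocytes, and gelatinase of the tertiary granules comes later still. S100A8 and S100A9 are not granule proteins: they form calprotectin, which makes up much of the neutrophil cytosol. In mice the factor C/EBP-epsilon is needed for secondary granule gene expression. All 10 genes are taken here as markers of the granulocyte lineage, and the labels name pre-B cells alone. Whether other marrow cells supplied part of these transcripts was not tested.

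Pre-B markers were present in every library, which does not show how pure the cells were. Each of 12 pre-B markers reached 1 FPKM in all 4 libraries, the lowest being Vpreb1, which encodes a part of the surrogate light chain, at 7.31 FPKM in steady-state wild type. Cd79a, a chain of the B cell receptor complex, had 1725 FPKM in transgenic and 1833 in steady-state wild type. It had 1624 FPKM in the library labelled knockout and 1952 in transplanted wild type. Vpreb1 and Igll1, the surrogate light chain genes, were the pre-B markers 2-fold apart at steady state. Vpreb1 was 4.71-fold higher in transgenic (3.13 to 7.18), with 34.4 FPKM. Igll1 was 2.73-fold higher (2.07 to 3.63), with 39.9 FPKM in transgenic and 14.6 in steady-state wild type. After transplantation Vpreb1 had 38.6 FPKM in labelled knockout and 30.2 in wild type, and Igll1 had 49.7 FPKM in labelled knockout and 36.4 in wild type. The 12 markers summed to 7078 FPKM in transgenic, 7583 in steady-state wild type, 6785 in labelled knockout and 7409 in transplanted wild type. Depth, recovered from the steps of 1 read among low FPKM values, was about 7280000 reads in transgenic, 7340000 in steady-state wild type, 8700000 in labelled knockout and 7770000 in transplanted wild type. Stap2 itself was near the detection limit, at 0.536 FPKM in transgenic and 0.212 in steady-state wild type, and at 0.179 in labelled knockout while it was listed at 0 in transplanted wild type. Stap2 therefore checks neither genotype label, and the direction of each comparison rests on the labels.

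The stretches upstream of 6 members are printed because each holds a match to a letter pattern of myeloid factors outside the transcribed gene. They come from RefSeq on GRCm38.p6, are written 5′ to 3′ along the gene's strand and stop before the transcribed gene as RefSeq or GENCODE M21 draws it, whichever begins first. Capitals mark matches, on either strand, to TTGCNNAA, a core letter pattern of C/EBP factors, and to GAGGAA, the PU-box read by PU.1 and other ETS factors. The windows are chr3:90668821-90668977 (plus strand) for S100a8, chr3:90695722-90695971 (minus strand) for S100a9, chr9:110419558-110419746 (plus strand) for Ngp, chr9:111019042-111019270 (plus strand) for Ltf, chr9:7558179-7558428 (plus strand) for Mmp8 and chr16:48872358-48872607 (plus strand) for Retnlg.
S100a8: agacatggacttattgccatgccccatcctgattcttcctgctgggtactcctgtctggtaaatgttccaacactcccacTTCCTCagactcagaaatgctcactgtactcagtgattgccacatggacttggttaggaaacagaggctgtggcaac
S100a9: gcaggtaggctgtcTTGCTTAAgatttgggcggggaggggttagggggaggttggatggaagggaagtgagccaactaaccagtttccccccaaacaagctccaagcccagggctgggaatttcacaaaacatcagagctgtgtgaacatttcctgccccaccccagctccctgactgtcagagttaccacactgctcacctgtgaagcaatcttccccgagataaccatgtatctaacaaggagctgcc
Ngp: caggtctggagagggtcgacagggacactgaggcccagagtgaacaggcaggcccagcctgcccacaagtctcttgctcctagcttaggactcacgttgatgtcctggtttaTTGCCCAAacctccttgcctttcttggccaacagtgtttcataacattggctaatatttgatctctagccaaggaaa
Ltf: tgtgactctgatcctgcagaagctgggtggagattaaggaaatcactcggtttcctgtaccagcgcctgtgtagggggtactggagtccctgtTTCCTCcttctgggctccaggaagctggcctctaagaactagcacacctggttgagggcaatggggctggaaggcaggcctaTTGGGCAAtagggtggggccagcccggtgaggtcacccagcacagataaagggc
Mmp8: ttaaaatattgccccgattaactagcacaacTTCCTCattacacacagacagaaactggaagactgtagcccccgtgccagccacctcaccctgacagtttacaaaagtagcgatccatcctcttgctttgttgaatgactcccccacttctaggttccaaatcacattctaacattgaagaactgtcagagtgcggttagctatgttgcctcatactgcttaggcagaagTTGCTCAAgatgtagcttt
Retnlg: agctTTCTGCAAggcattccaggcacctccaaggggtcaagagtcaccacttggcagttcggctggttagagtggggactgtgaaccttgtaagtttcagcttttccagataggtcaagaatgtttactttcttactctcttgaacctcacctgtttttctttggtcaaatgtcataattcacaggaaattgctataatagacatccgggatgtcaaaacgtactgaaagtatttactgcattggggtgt

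RefSeq held a promoter window, 250 bases before to 50 after the start, for 8 of the 10 members; Mmp9 and Hp were not matched. TTGCNNAA, searched on both strands, was found in 6 of the 8 windows (75%), against 10.8% of all 32851 mouse windows of the same length. S100a9, Ngp, Lcn2, Retnlg, Ltf and Mmp8 held it, and Ngp held it at 2 places, beginning 138 and 11 bases before the RefSeq start. GAGGAA was found in 4 of the 8 windows (50%), against 28.3% of all windows. S100a8 held it beginning 170 and 36 bases before the start. TATAAA, the core of a TATA box, was found in 3 of the 8 windows (37.5%), against 13.6% of all. In S100a8 it began 30 bases before the start, directly beside the nearer GAGGAA match, and in S100a9 and Mmp8 it lay at the start itself. TGACTCA, read by AP-1, and GGGACTTTC, read by NF-kB, were in none of the 8 windows, against 5.2% and 0.353% of all windows. Matches that lie in the transcribed part are not among the capitals above. Camp held none of these patterns. A match says only that the letters are present.

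**Figure D1:**
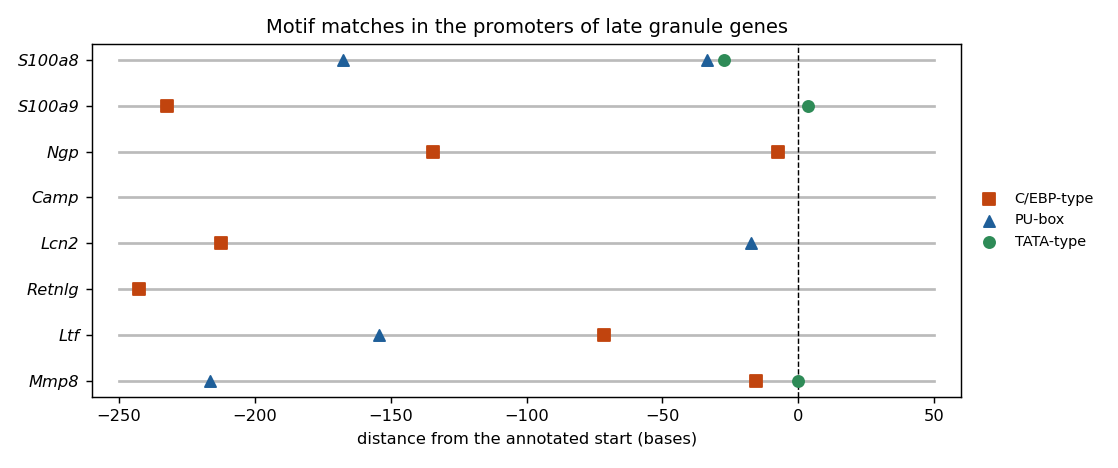
Distance in bases from the RefSeq start (dashed line) of matches to TTGCNNAA (squares), GAGGAA (triangles) and TATAAA (circles) in the promoter windows of 8 late granule genes, 1 line per gene. The C/EBP-type pattern is in 6 of the 8 windows at scattered distances, and Camp holds none of the 3 patterns.

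Calprotectin transcripts were the most abundant of the set. S100a8 (chromosome 3, 90668978 to 90670035, plus strand, GRCm38) was at 720 FPKM in transgenic and 293 in steady-state wild type, and at 261 in labelled knockout and 613 in transplanted wild type. S100a9 (chromosome 3, 90692632 to 90695721, minus strand), whose gene lies 22.6 kb away, was at 670 FPKM in transgenic and 273 in steady-state wild type, and at 227 in labelled knockout and 625 in transplanted wild type. The transgenic and the transplanted wild-type libraries were high for both genes, and the steady-state wild-type library and the library labelled knockout were low. In the transgenic library S100a8 was 2.46-fold higher than in wild type (95% interval 2.23 to 2.71) and S100a9 2.45-fold higher (2.23 to 2.69). In the library labelled knockout S100a8 was 2.34-fold lower than in transplanted wild type (2.13 to 2.58) and S100a9 2.76-fold lower (2.51 to 3.03).

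In rank among all symbols, S100a8 stood at position 110 in transgenic, 232 in steady-state wild type, 260 in labelled knockout and 127 in transplanted wild type, so these transcripts were among the abundant ones of each pre-B library. The proportion of the heterodimer's partners had overlapping intervals in all 4 libraries, and was lowest in labelled knockout and highest in transplanted wild type. S100a9 was at 0.931 times the FPKM of S100a8 in transgenic (0.865 to 1.00) and 0.934 times in steady-state wild type (0.833 to 1.05), and at 0.867 times in labelled knockout (0.774 to 0.970) and 1.02 times in transplanted wild type (0.946 to 1.10). Their transcripts are short, 486 and 519 nt, so their FPKM relative to longer genes leans on the length correction of the authors' values. That correction cancels between libraries only if it was the same in each, which was not checked.

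Other S100 genes did not share that pattern as a group. Of 14 further family members, 6 passed the filter of 1 FPKM, and S100a3, S100a5, S100a7a, S100a16, S100g and S100z were listed at 0 in every library. S100a10, the partner of annexin A2, was at 262 FPKM in transgenic and 236 in steady-state wild type, and at 258 in labelled knockout and 246 in transplanted wild type. S100a11 was at 231 FPKM in transgenic and 219 in steady-state wild type, and at 213 in labelled knockout and 223 in transplanted wild type. S100a6 (calcyclin) did go with the calprotectin pair, at 12.1 FPKM in transgenic and 4.0 in steady-state wild type, and at 4.28 in labelled knockout and 8.58 in transplanted wild type. S100a4 went the other way at steady state, at 1.42 FPKM in transgenic and 4.69 in wild type, or about 3 and 10 reads. Its ratio there was 0.303, with an interval that includes 1 (0.0535 to 1.18). The median difference of the 6, on the log2(FPKM + 1) scale, was 0.29 in the transgenic comparison and 0.01 in the labelled knockout comparison.

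**Figure D2:**
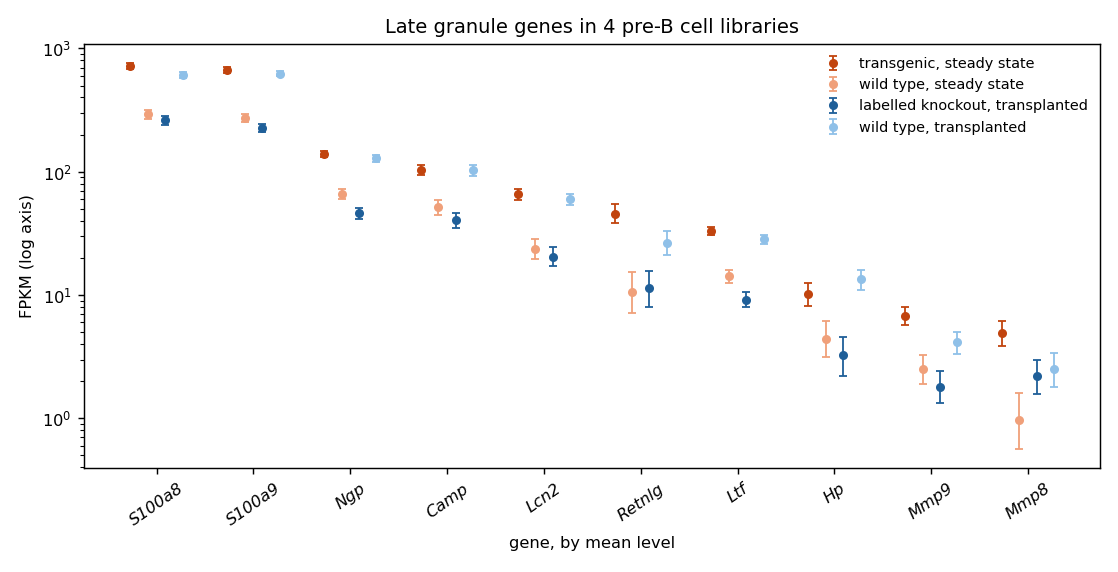
FPKM (log axis) of the 10 late granule genes in each of the 4 libraries, genes in order of mean level, with exact Poisson 95% intervals from estimated reads. In 7 of the 10 genes the libraries stand in the order transgenic, transplanted wild type, steady-state wild type, labelled knockout.

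The cathelicidin-type granule proteins came next in level. Ngp (chromosome 9, 110419747 to 110423012, plus strand), which encodes neutrophilic granule protein, a mouse relative of cathelicidins and cystatins, was at 139.7 FPKM in transgenic and 66.1 in steady-state wild type, and at 46.1 in labelled knockout and 128.6 in transplanted wild type. Camp (chromosome 9, 109847379 to 109849617, minus strand), the gene of the antimicrobial peptide CRAMP, was at 103.8 FPKM in transgenic and 51.6 in steady-state wild type, and at 40.3 in labelled knockout and 102.6 in transplanted wild type. Both genes again separated the libraries into a high and a low pair. Ngp was 2.11-fold higher in transgenic than in wild type (1.90 to 2.36) and 2.79-fold lower in labelled knockout than in transplanted wild type (2.48 to 3.14). Camp was 2.01-fold higher (1.69 to 2.38) in the transgenic and 2.54-fold lower (2.14 to 3.03) in the labelled knockout comparison.

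Camp, Ngp and Ltf lie near each other on chromosome 9, with 0.57 Mb between Camp and Ngp and 0.596 Mb between Ngp and Ltf. The proportion of Camp to Ngp had overlapping intervals in all 4 libraries, at 0.743 in transgenic (0.661 to 0.834) and 0.781 in steady-state wild type (0.662 to 0.922), and 0.874 in labelled knockout (0.732 to 1.04) and 0.797 in transplanted wild type (0.710 to 0.892).

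Transcripts of proteins that withhold iron had the same order of libraries as the calprotectin genes. Lcn2 (chromosome 2, 32384633 to 32388252, minus strand) encodes lipocalin-2, which captures bacterial siderophores, and was at 65.7 FPKM in transgenic and 23.7 in steady-state wild type, and at 20.5 in labelled knockout and 59.8 in transplanted wild type. Ltf (chromosome 9, 111019271 to 111042767, plus strand) encodes the iron-binding lactoferrin that defines secondary granules, and was at 33.2 FPKM in transgenic and 14.3 in steady-state wild type, and at 9.17 in labelled knockout and 28.4 in transplanted wild type. Transgenic over wild type was 2.77-fold for Lcn2 (2.24 to 3.42) and 2.33-fold for Ltf (2.01 to 2.70). Labelled knockout was 2.91-fold below transplanted wild type for Lcn2 (2.36 to 3.6) and 3.10-fold below for Ltf (2.63 to 3.66).

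Gelatinase and collagenase transcripts were the lowest of the set. Mmp9 (chromosome 2, 164940780 to 164955850, plus strand), gelatinase B of tertiary granules, was at 6.80 FPKM in transgenic and 2.51 in steady-state wild type, and at 1.81 in labelled knockout and 4.13 in transplanted wild type. It was 2.71-fold higher in transgenic than in wild type (1.96 to 3.74) and 2.29-fold lower in labelled knockout than in transplanted wild type (1.58 to 3.28). Mmp8 (chromosome 9, 7558456 to 7568485, plus strand), neutrophil collagenase, was at 4.90 FPKM in transgenic and 0.972 in steady-state wild type, and at 2.2 in labelled knockout and 2.53 in transplanted wild type. These values stand for about 79 reads in transgenic and 16 in steady-state wild type, and 42 in labelled knockout and 43 in transplanted wild type. Mmp8 was 5.04-fold higher in transgenic than in wild type (2.88 to 9.13), the highest ratio of the 10. In the labelled knockout comparison its ratio was 0.872 (0.556 to 1.37), an interval that includes 1, and it was the 1 member of 10 whose interval did. The share of all genes with such an interval was not computed, so nothing is read from that count.

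Mmp8 stood at 0.720 times the FPKM of Mmp9 in transgenic (0.540 to 0.952) and 0.387 times in steady-state wild type (0.208 to 0.690), and at 1.22 times in labelled knockout (0.770 to 1.85) and 0.611 times in transplanted wild type (0.412 to 0.877). Of 15 other matrix metalloproteinase genes, Mmp3, Mmp7, Mmp12 and Mmp16 were listed at 0 in every library and 3 passed the filter in the transgenic comparison, none of them 2-fold apart. Mmp11, stromelysin-3, was the highest, at 13.2 FPKM in transgenic and 14.6 in steady-state wild type, and at 11.6 in labelled knockout and 10.9 in transplanted wild type. The tissue inhibitor Timp1 was at 0.339 FPKM or less in every library.

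The remaining pair are secreted proteins. Retnlg (chromosome 16, 48872621 to 48874496, plus strand) encodes resistin-like gamma, a product of mouse neutrophils, and was at 45.7 FPKM in transgenic and 10.6 in steady-state wild type, and at 11.5 in labelled knockout and 26.4 in transplanted wild type. It was 4.33-fold higher in transgenic than in wild type (2.87 to 6.63) and 2.30-fold lower in labelled knockout than in transplanted wild type (1.56 to 3.53). Retnlg has close paralogs, between which the authors' counting could have divided reads. Hp (chromosome 8, 109575128 to 109579172, minus strand) encodes haptoglobin, which binds free haemoglobin and, in human neutrophils, is stored in specific granules. Hp was at 10.2 FPKM in transgenic and 4.44 in steady-state wild type, and at 3.24 in labelled knockout and 13.4 in transplanted wild type, the only member highest in transplanted wild type. Its ratio was 2.29 in the transgenic comparison (1.54 to 3.47), and it was 4.13-fold lower in labelled knockout than in transplanted wild type (2.77 to 6.31).

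Across the set, all 10 members were higher in transgenic than in steady-state wild type, and 9 were at least 2-fold higher on the log2(FPKM + 1) scale. Camp, with a difference of 0.99, was just short of it. Over all 10843 genes that reached 1 FPKM in transgenic or wild type, 1.22% were 2-fold higher and 0.682% 2-fold lower. Because these libraries were known when the members were picked, nothing is read from that contrast, here or in the comparisons that follow. The median difference was 1.23, with a range of 0.99 to 2.01, against -0.02 over all genes. Summed over the members, 5782 estimated reads in transgenic stood against 2437 in wild type, a ratio of 2.39 per read sequenced (2.28 to 2.51).

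All 10 members were lower in labelled knockout than in transplanted wild type, 8 of them at least 2-fold. The other two were Mmp9, with a difference of -0.87 on that scale, which understates low genes, and Mmp8, with -0.14. Among 10790 genes tested, 0.667% were 2-fold higher and 1.18% 2-fold lower, or 72 and 127 genes. That background split turns with the scaling: 117 genes were higher and 105 lower after libraries were set to the same summed FPKM, and 146 and 100 after they were set to the same sum of pre-B markers. The members' median was -1.39, with a range of -1.76 to -0.14, against -0.03 over all genes. Their summed reads were 2322 in labelled knockout and 5482 in transplanted wild type, which is 2.64-fold lower per read sequenced (2.52 to 2.78).

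**Figure D3:**
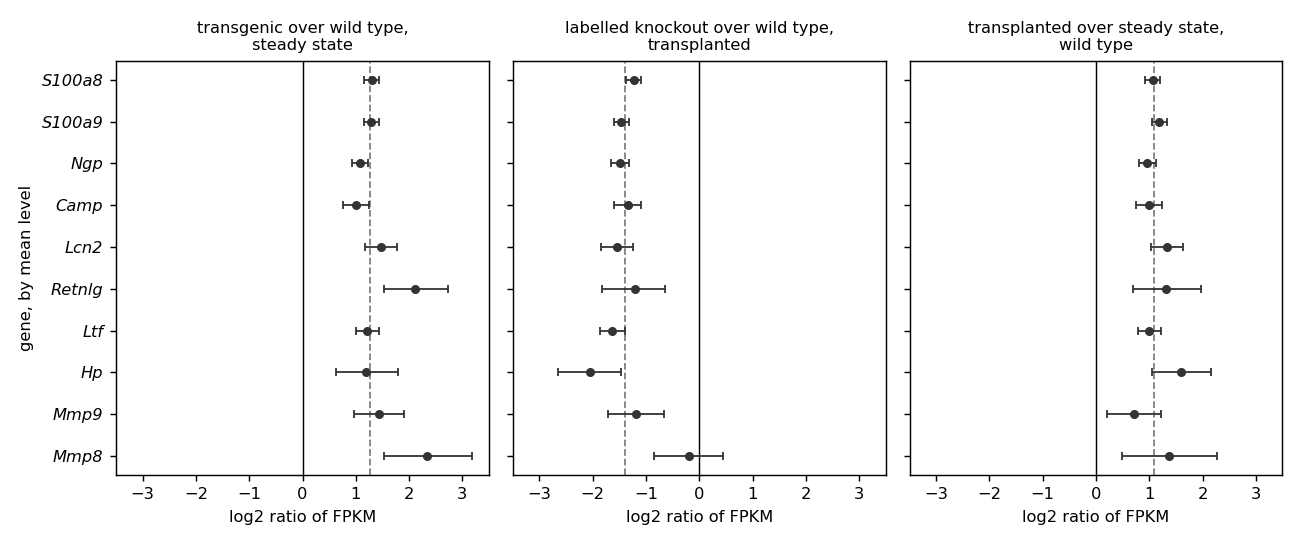
Log2 ratio of FPKM for each late granule gene in 3 comparisons, with 95% intervals from estimated reads. The dashed line is the ratio of summed reads (2.39-fold higher in transgenic, 2.64-fold lower in labelled knockout, 2.13-fold higher in transplanted wild type). The interval of Mmp8 in the labelled knockout comparison includes no difference.

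Between the wild-type libraries, all 10 members were higher after transplantation than at steady state, 5 of them at least 2-fold, with 1.67% of 10835 genes 2-fold higher and 0.628% 2-fold lower. Each of these libraries also serves as the control of a comparison above, so the 3 comparisons are not independent. The median difference was 1.02 (range 0.55 to 1.40), against -0.02 over all genes, and the ratio of summed reads was 2.13 (2.03 to 2.23). Hp had the highest ratio, 3.01 (2.07 to 4.49), and Mmp9 the lowest, 1.65 (1.16 to 2.32). Transplantation and the code in the titles cannot be told apart here. The wild-type libraries thus differed from each other in these transcripts by 2.13-fold, against 2.39-fold between transgenic and its wild type.

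As a share of all estimated reads, the members together took 0.0794% in transgenic and 0.0332% in steady-state wild type, and 0.0267% in labelled knockout and 0.0706% in transplanted wild type. In bulk RNA, fewer cells that carry these transcripts and less of them per cell cannot be told apart. Transgenic was the highest library for 9 members. Labelled knockout was the lowest for 8, the others being Retnlg and Mmp8, which were lowest in steady-state wild type. The highest library exceeded the lowest by 2.57-fold for Camp, the narrowest span, and by 5.04-fold for Mmp8, the widest. Transgenic and transplanted wild type had overlapping intervals for 6 members, S100a9, Ngp, Camp, Lcn2, Ltf and Hp. Labelled knockout and steady-state wild type overlapped for 7 members, all but S100a9, Ngp and Ltf. The share of all genes with such overlap was not computed, so nothing is read from these counts.

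The order of the genes by FPKM was almost the same in every library, from the calprotectin pair down to the metalloproteinases. Neighbours in that order had overlapping intervals in 2 of 9 steps in transgenic and 3 in steady-state wild type, and in 5 steps in labelled knockout and 3 in transplanted wild type. S100a8 and S100a9 overlapped in every library. The drop from the calprotectin genes to Ngp was clear of counting error in every library.

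The make-up of the set was also much alike, with a few departures. S100a8 and S100a9 together held 51.1% of the members' summed reads in transgenic and 49.8% in steady-state wild type, and 53.2% in labelled knockout and 51.3% in transplanted wild type. A member's ratio was compared with the ratio of the summed reads, which includes that member. The summed ratio lay inside the interval of 6 members in the transgenic comparison, of 7 in the labelled knockout comparison and of all 10 between the wild-type libraries. In the transgenic comparison Retnlg and Mmp8 had ratios above it, and Ngp and Camp below. In the labelled knockout comparison S100a8 and Mmp8 were lowered less than the sum and Hp more. Mmp8 took 1.37% of the summed reads in transgenic (1.08 to 1.70) and 0.649% in steady-state wild type (0.376 to 1.06), and 1.83% in labelled knockout (1.31 to 2.44) and 0.793% in transplanted wild type (0.568 to 1.06). Hp took 1.45% in transgenic (1.16 to 1.80) and 1.52% in steady-state wild type (1.07 to 2.09), and 1.38% in labelled knockout (0.945 to 1.94) and 2.15% in transplanted wild type (1.79 to 2.57). These Hp intervals overlapped. Retnlg took 2.2% in transgenic (1.85 to 2.63), apart from 1.22% in steady-state wild type (0.832 to 1.75) and from 1.43% in transplanted wild type (1.14 to 1.79). Mmp9 took 2.54% in transgenic (2.15 to 2.98), apart from 1.74% in transplanted wild type (1.40 to 2.11). S100a8 took 27.03% in labelled knockout (25.25 to 28.9), apart from 23.97% in transplanted wild type (22.84 to 25.12).

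**Figure D4:**
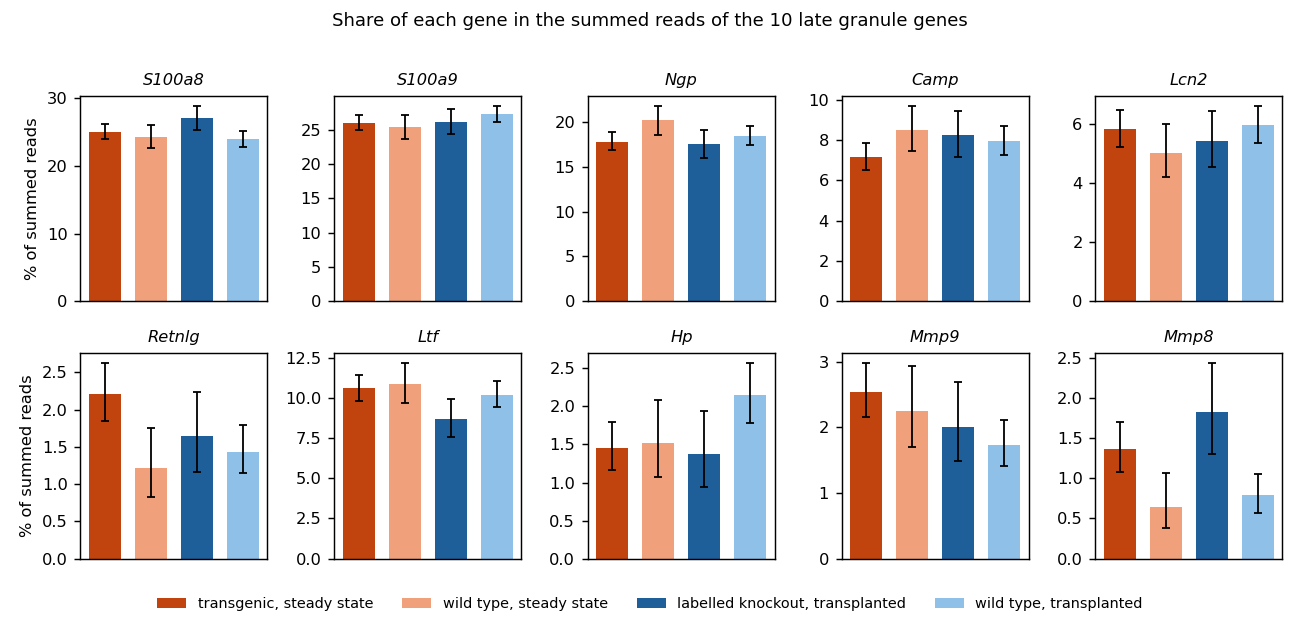
Share of each gene in the summed estimated reads of the 10 late granule genes, in percent, per library, with exact binomial 95% intervals. Most shares overlap across libraries; Mmp8 has its highest share in labelled knockout (1.83%) and its lowest in steady-state wild type (0.649%).

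Earlier granule products did not keep a fixed proportion to these genes. The primary granule list, with genes made in promyelocytes, summed to 70.6 FPKM in transgenic and 43.2 in steady-state wild type, and to 43.7 in labelled knockout and 132.9 in transplanted wild type. Elane, neutrophil elastase, was at 24.5 FPKM in transgenic and 13.4 in steady-state wild type, and at 13.6 in labelled knockout and 41.6 in transplanted wild type. Mpo, myeloperoxidase, was at 19.9 FPKM in transgenic and 13.8 in steady-state wild type, and at 11.4 in labelled knockout and 38.8 in transplanted wild type. Of 7 genes that passed, 6 were higher in transgenic, none 2-fold on the log2(FPKM + 1) scale, with a median of 0.59. All 7 were lower in labelled knockout, 5 of them 2-fold on that scale, with a median of -1.32. Prtn3 and Ctsg, further serine proteases, were among the 5. Bpi, bactericidal permeability-increasing protein, was listed at 0 in every library.

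Summed reads of the late genes over those of the primary list came to 8.06 in transgenic (7.46 to 8.73) and 5.17 in steady-state wild type (4.68 to 5.71), and to 4.50 in labelled knockout (4.09 to 4.96) and 3.85 in transplanted wild type (3.63 to 4.08). Transgenic thus had the most late transcripts per primary one and transplanted wild type, the library with the second highest late genes, had the fewest. Cell numbers behind these ratios were not measured.

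Other transcripts of late granules and of neutrophil secretion went the same way to a smaller extent. Of 14 such genes that passed, 12 were higher in transgenic than in wild type, 1 of them 2-fold on the log2(FPKM + 1) scale, with a median of 0.66. In labelled knockout 13 were lower than in transplanted wild type, 5 of them 2-fold on that scale, with a median of -0.73. No value for Ly6g, a defining marker of mouse neutrophils, was used here. Chi3l3, chitinase-like protein Ym1, was at 24.3 FPKM in transgenic and 11.7 in steady-state wild type, and at 11.8 in labelled knockout and 30.1 in transplanted wild type. Lyz2, lysozyme M, was at 52.0 FPKM in transgenic and 30.7 in steady-state wild type, and at 27.1 in labelled knockout and 76.2 in transplanted wild type. Cybb and Cyba encode the membrane subunits of the NADPH oxidase, which B cells also express. Cybb was at 43.9 FPKM in transgenic and 24.6 in steady-state wild type, and at 35.4 in labelled knockout and 51.2 in transplanted wild type. In the labelled knockout comparison the ratio was 0.692 for Cybb and 0.787 for Cyba, against 0.390 for Chi3l3 and 0.356 for Lyz2. At steady state Cybb was 1.78-fold higher in transgenic, against 1.69-fold for Lyz2. Cyba was 1.18-fold higher in transgenic than in wild type (1.07 to 1.31). Slpi, a protease inhibitor also made outside neutrophils, was opposite to the set at steady state, with 16.9 FPKM in transgenic and 36.1 in wild type.

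Receptors of mature neutrophils were low, at 5.07 FPKM or less each, and summed to 26.8 FPKM in transgenic and 10.2 in steady-state wild type, and to 11.1 in labelled knockout and 24.2 in transplanted wild type. All 9 that passed had a higher value in transgenic, 3 of them 2-fold, with a median of 0.93. Tlr2, the most abundant of them, was among the 9 with no difference beyond counting error, at 3.38 FPKM in transgenic and 3.19 in steady-state wild type (ratio 1.06, 0.741 to 1.5), and it was at 2.48 in labelled knockout and 4.14 in transplanted wild type. Fcgr3, a receptor for immunoglobulin G, was at 2.64 FPKM in transgenic and 1.19 in steady-state wild type, and at 1.21 in labelled knockout and 5.07 in transplanted wild type. Of 8 that passed in the labelled knockout comparison, 6 were lower, 3 of them 2-fold, with a median of -0.74. Csf3r, the receptor of granulocyte colony-stimulating factor, was at 4.12 FPKM in transgenic and 1.22 in steady-state wild type, and at 0.989 in labelled knockout and 3.03 in transplanted wild type. Cxcr2, the chemokine receptor by which mature neutrophils leave the marrow, was at 2.81 FPKM in transgenic and 1.44 in steady-state wild type, and at 2.31 in labelled knockout and 1.68 in transplanted wild type. Its value was thus higher in labelled knockout, opposite to the members, with an interval that includes 1 (ratio 1.38, 0.894 to 2.14).

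Among factors that drive granulocyte genes, Cebpe was at 2.27 FPKM in transgenic and 0.530 in steady-state wild type, and at 0.559 in labelled knockout and 1.5 in transplanted wild type. Cebpb, a factor of late and emergency granulopoiesis, was at 3.61 FPKM in transgenic and 0.842 in steady-state wild type, and at 1.86 in labelled knockout and 4.28 in transplanted wild type. Sfpi1, the gene of PU.1, which B cell precursors also use, was at 70.8 FPKM in transgenic and 78.0 in steady-state wild type, and at 72.8 in labelled knockout and 76.5 in transplanted wild type. Gfi1, a repressor found in both lineages, was at 7.62 FPKM in transgenic and 10.5 in steady-state wild type, and at 11.2 in labelled knockout and 12.7 in transplanted wild type. Cebpe and Cebpb were thus high in the libraries where the granule genes were high, and Sfpi1 and Gfi1 were not. The interval of Cebpe includes 1 in the labelled knockout comparison (ratio 0.372, 0.103 to 1.13). It also includes 1 between the wild-type libraries (ratio 2.835, 0.859 to 12.1). Cebpe had about 17 reads in transgenic and 4 in steady-state wild type, and 5 in labelled knockout and 12 in transplanted wild type. Of the 6 factors on the list 4 passed the filter. On the log2(FPKM + 1) scale, which understates low genes, 2 of them were 2-fold higher in transgenic and none was 2-fold apart in the labelled knockout comparison. The plain ratio of Cebpb in the labelled knockout comparison was 0.436 (0.246 to 0.751).

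Receptors and inhibitors of these products were low. Of 11 partner and inhibitor genes, 3 passed the filter in each comparison. None of them was 2-fold apart on the log2(FPKM + 1) scale, which understates low genes. Tlr4, a receptor of calprotectin, was at 2.31 FPKM in transgenic and 1.35 in steady-state wild type, and at 1.17 in labelled knockout and 2.87 in transplanted wild type. Its plain ratio was 1.71 in the transgenic comparison (1.14 to 2.65) and 0.408 in the labelled knockout comparison (0.270 to 0.598). Between the wild-type libraries it was 2.13 (1.44 to 3.22). Ager, another receptor of calprotectin, was at 4.73 FPKM in transgenic and 3.52 in steady-state wild type, and at 2.97 in labelled knockout and 3.11 in transplanted wild type. Lrp2, which takes up lipocalin-2 in the kidney, was listed at 0 in every library.

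Markers of other marrow cells moved with these genes to differing degrees, and their part in the result was not tested. Monocyte and macrophage markers, led by Ly6c2, summed to 39.5 FPKM in transgenic and 26.5 in steady-state wild type, and to 30.7 in labelled knockout and 63.4 in transplanted wild type. Of 6 that passed, 4 were higher in transgenic, and all 9 that passed were lower in labelled knockout, with a median of -0.92. Eosinophil markers summed to 52.1 FPKM in transgenic and 6.74 in steady-state wild type, and to 5.76 in labelled knockout and 10.9 in transplanted wild type. Prg2, the major basic protein of eosinophil granules, made up most of the transgenic sum with 35.1 FPKM, against 3.46 in steady-state wild type. All 6 eosinophil markers that passed were higher in transgenic, 5 of them 2-fold, and both that passed were lower in labelled knockout.

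Erythroid markers ran the other way at steady state, summing to 21.6 FPKM in transgenic and 112.5 in wild type, with all 6 that passed lower in transgenic, 5 of them 2-fold. After transplantation they summed to 27.6 FPKM in labelled knockout and 22.5 in wild type. Megakaryocyte markers summed to 5.96 FPKM in transgenic and 11.7 in steady-state wild type, and to 1.75 in labelled knockout and 3.02 in transplanted wild type. Plasma cell markers, which pre-B cells share in part, summed to 487.5 FPKM in transgenic and 700.1 in steady-state wild type, and to 325.5 in labelled knockout and 294.9 in transplanted wild type. Mast cell and basophil, dendritic, stromal, and T and NK cell lists each summed to 12.0 FPKM or less in every library. Non-lymphoid transcripts as a whole were thus not in 1 order across libraries. Housekeeping genes had a median difference of 0.11 in the transgenic comparison and 0.03 in the labelled knockout comparison.

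**Figure D5:**
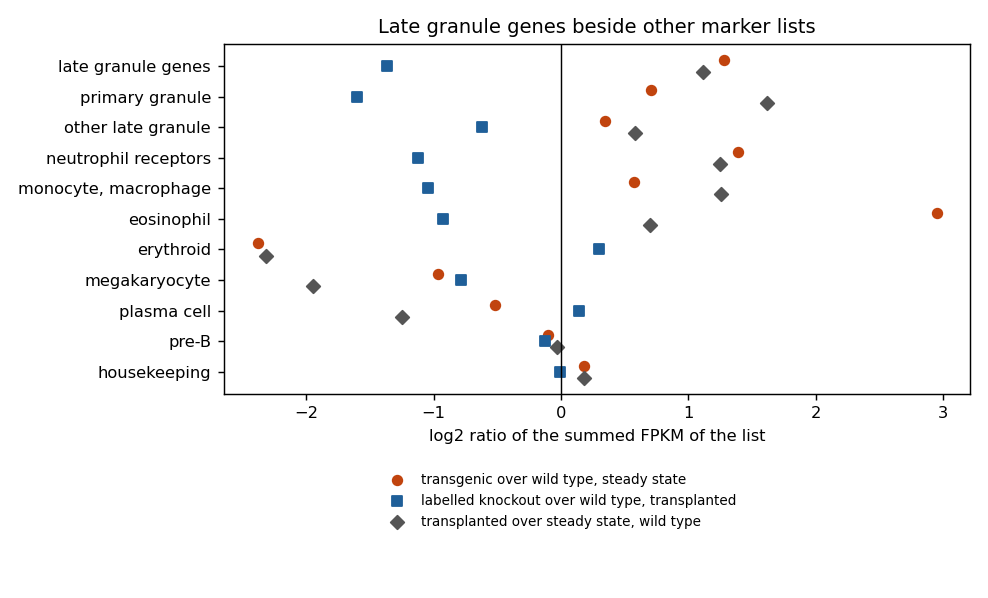
Log2 ratio of the summed FPKM of each marker list in 3 comparisons: transgenic over steady-state wild type (circles), labelled knockout over transplanted wild type (squares) and transplanted over steady-state wild type (diamonds). The neutrophil, eosinophil and monocyte lists lie to the right of 0 for circles and diamonds and to the left for squares, erythroid markers do not, and pre-B and housekeeping lists lie near 0.

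The genes most like the members were sought among 8860 that reached 5 FPKM in some library, by the distance between centred log2(FPKM + 1) values over the 4 libraries and the median profile of the 10 members. That profile was 0.76 in transgenic, -0.53 in steady-state wild type, -0.79 in labelled knockout and 0.57 in transplanted wild type. The nearest outside the set were Snhg9 (distance 0.347), S100a6 (0.359), Cd177 (0.395), Chi3l3 (0.438), Fcer1g (0.447), Plbd1 (0.467), Anxa1 (0.495), Lyz1 (0.518), Ms4a3 (0.526) and Trim7 (0.538). Cd177, a surface protein of neutrophil granules, was at 5.54 FPKM in transgenic and 2.72 in steady-state wild type, and at 1.88 in labelled knockout and 5.09 in transplanted wild type. Snhg9, a small nucleolar RNA host gene with no known tie to granules, was at 15.7 FPKM in transgenic and 7.81 in steady-state wild type, and at 6.59 in labelled knockout and 14.8 in transplanted wild type. Fcer1g and Plbd1 are expressed by several myeloid cell types, and Lyz1 and Chi3l3 have near-identical paralogs that may share their reads. Of the members, S100a9 lay closest to the median profile (0.0829) and Mmp8 farthest (0.907), with 94 genes, the other members included, closer than Mmp8.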

How the data were processed

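Pre-B cell RNA was measured in 4 libraries, 1 per group. Per the labels' protocols, a miRNeasy kit gave total RNA and a TruSeq stranded mRNA kit the libraries. The submitters' processing notes name Cufflinks 2.2.1, TopHat2 2.0.13, SAMtools 0.1.19, Bowtie2 2.2.3 and the build mm10, without their roles. The authors' deposited values are taken to be FPKM, normalised to transcript length and library size, although the headers name no unit.

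The members and all 19 gene lists were chosen with earlier results of these data known. Named list genes were the 4 with the highest mean FPKM and markers at 0 in every library. Slpi, Timp1, S100a4, Vpreb1 and Igll1 were named after their values were seen. Differences are log2(FPKM + 1), which understates low genes, among genes that reached 1 FPKM in a library compared; 2-fold is a difference of 1. Fold values are plain FPKM ratios with exact Clopper-Pearson 95% intervals, and levels have exact Poisson intervals. Reads were estimated from 1-read steps, with 210 nt subtracted from transcript length: 69.2% of 2678 values of up to 20 reads in genes with 1 transcript came within 0.1 of a whole number, against 20% by chance. They are approximate for genes with several transcripts, among them Ltf. Without molecular identifiers, reads may be copies of 1 molecule. Coordinates are GENCODE M21 on GRCm38, the assembly mm10 names. SciPy 1.17.1 and pandas 2.3.3 were used, and the procedure was tested on simulated data. Alternatives were a pseudocount of 0.1, no filter or one of 5 FPKM, and 5 rescalings.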

Additional observations from a re-analysis of the deposited data

How the results depend on the processing

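None of the 79, 78 and 78 single-gene values (transgenic, labelled knockout and wild-type comparison) obtained under the 8 alternatives reversed. The filter of 5 FPKM gave no value for Mmp8 in any comparison, nor for Mmp9 in the labelled knockout and wild-type comparisons. Their median stayed between 1.11 and 1.32 in the transgenic comparison, between -1.46 and -1.27 in the labelled knockout comparison and between 0.92 and 1.13 in the wild-type comparison. The 2-fold count ran from 7 to 10, from 8 to 9 and from 4 to 6. The background counts over all genes moved. With a pseudocount of 0.1, 275 genes were higher and 159 lower in transgenic, 154 and 267 in labelled knockout, and 346 and 158 in transplanted wild type. With a filter of 5 FPKM, fewer genes were tested, and 69 were higher and 44 lower in transgenic, 80 lower in labelled knockout and 41 lower in transplanted wild type. Set to the same summed FPKM, 117 genes were higher in labelled knockout, and 146 when set to the pre-B sum; the cause was not tested. Those scalings moved the median of all genes by -0.11 in the transgenic comparison (same sum) and by 0.12 in the labelled knockout comparison (pre-B sum). When FPKM replaced reads, 36 of 40 shares moved, since FPKM gives more weight to short transcripts. No paired analysis was possible because each group has 1 library, and leaving out a replicate was not possible for the same reason. Depth limits Mmp8, Retnlg and Hp most.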
